A study of Mus musculus with 30 samples.

Results

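A set of 29 genes of oligodendrocytes and myelin was followed through 30 libraries of ribosome-associated RNA from the nucleus accumbens of female mice. The members were listed by symbol, and all 29 matched a single row each among the 55335 genes of the deposited count table. All 29 passed the filter on low counts, among 19368 genes tested. The mice carried a Cre-dependent HA-tagged ribosomal protein (RiboTag, RT). D1-Cre-RT mice tag ribosomes of medium spiny neurons with the D1 dopamine receptor. A2A-Cre-RT mice, in which the promoter of the adenosine A2A receptor drives Cre, tag those with the D2 receptor (written D2 for short). Each class had Control mice and mice that had gone through chronic witness defeat stress (CWDS), which were split by social interaction into Resilient and Susceptible. There were 5 libraries in each of the 6 groups, and each library pooled 4 mice that scored alike. Accumbens was collected 24 h after testing, and the ages of the mice are not given in the labels. Class and mouse line are the same contrast in this design, so a difference between the neuron classes and one between the lines cannot be told apart.

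Oligodendrocytes wrap axons in myelin, a stack of membrane held together by proteins such as myelin basic protein and rich in galactolipids. They arise from precursors that carry the PDGF receptor alpha, pass through a committed stage marked by GPR17 and BCAS1, and depend on SOX10, the OLIG factors and MYRF to switch on myelin genes. Medium spiny neurons are not known to make myelin. Libraries of tagged neuronal ribosomes can hold RNA of other cells, and a lower value in such a library cannot tell fewer cells of a type from less RNA per cell.

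The sequence before the start site is shown for 3 members that were lower in D1 than in D2 libraries: Opalin and Ermn, which hold letters of a SOX core, and Mal, which does not. RefSeq windows on GRCm38.p6 were at hand for 20 of the 29 members, and none was for Mbp, Enpp2, Fa2h, Sox10, Olig1, Myrf, Trf, Gpr17 and Bcas1. The 3 were taken in order of adjusted p, by rule 2 with the core and 1 without. Only members lower in D1 with 1 window that reached no annotated exon were eligible, and chromosomes 8 and 18 were left out. Other members with the core are thus not shown. Each line gives the 250 bases before the start site, 5′ to 3′ in the direction of transcription. The windows are chr19:41077114-41077363, minus strand (Opalin), chr2:58052865-58053114, minus strand (Ermn) and chr2:127656696-127656945, minus strand (Mal). Capitals mark a SOX core, ACAAAG or ACAATG on either strand. The motifs do not overlap each other in these windows.
Opalin: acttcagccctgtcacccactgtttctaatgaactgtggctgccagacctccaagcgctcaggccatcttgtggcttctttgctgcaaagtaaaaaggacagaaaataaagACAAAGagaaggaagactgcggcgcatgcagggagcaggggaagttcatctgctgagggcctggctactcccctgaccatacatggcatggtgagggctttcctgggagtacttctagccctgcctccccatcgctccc
Ermn: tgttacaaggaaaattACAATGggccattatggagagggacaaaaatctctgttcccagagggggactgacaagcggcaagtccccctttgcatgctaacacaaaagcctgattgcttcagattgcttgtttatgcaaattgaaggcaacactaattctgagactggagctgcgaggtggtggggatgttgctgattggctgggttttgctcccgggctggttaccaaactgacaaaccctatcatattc
Mal: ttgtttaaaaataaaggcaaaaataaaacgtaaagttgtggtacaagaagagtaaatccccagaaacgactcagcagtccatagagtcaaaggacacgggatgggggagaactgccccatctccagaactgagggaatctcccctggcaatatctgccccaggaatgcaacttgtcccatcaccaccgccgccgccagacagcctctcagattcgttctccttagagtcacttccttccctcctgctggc
Opalin held ACAAAG from position -139 and Ermn held ACAATG from position -234, counted back from the start site. Mal, the member with the smallest adjusted p between the classes, held neither in its window. A SOX core was present in at least 1 window of 11 of the 20 members (55.0%), against 28.2% of the 27025 genes with windows. A gene could have more than 1 window, and 25.2% of all 32851 windows held a core. Of the 15 members that were lower in D1 and had windows, 8 held it. The letters CAGCTG, a motif of basic helix-loop-helix factors, were present for 2 members, Aspa and Hapln2 (10.0%, against 14.7% of genes). A match is a description of letters and not of binding.

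Reads assigned to genes numbered 28996168 to 65882152 per library, and the level of 3 reads, below which a gene with 0 counts may lie, was 0.0430 to 0.304 CPM. Several libraries stood apart. D1 Susceptible replicate 1 had 41.2% of its reads outside annotated features. Its TMM factor, which scales library size, was the lowest at 0.34, so its CPM depend most on that scaling. D2 Susceptible replicates 1 and 2 had 15822 and 16525 genes with a count, where the other 28 had 19440 to 22375. For the members themselves, D1 Control replicate 1 was the highest of its group for 29 of 29 genes and the highest of all 15 D1 libraries for 24, with a median of 2.25 times the mean of the other 4. D2 Control replicate 4 was the highest of its group for 22 members (median ratio 1.52), and the library labelled D2 Resilient replicate 5 was the lowest of its group for 28 (median ratio 0.447). The class labels were checked against genes of the 2 neuron types. Drd1 ran from 377 to 616 CPM in D1 libraries, and Drd2 from 49.8 to 143 CPM. Drd2 was at 106 to 143 CPM in D1 Control replicate 1, D1 Resilient replicate 5 and D1 Susceptible replicates 1, 4 and 5. The other D1 libraries had Drd2 at 49.8 to 80.1 CPM. Penk, a gene of D2 neurons, read 1811 to 2352 CPM in the same D1 libraries and 915 to 1524 CPM in the rest. In 12 of the 15 D2 libraries Drd1 ran from 50.3 to 95.2 CPM and Drd2 from 415 to 572 CPM. The other 3 D2 libraries carried more Drd1: 147 CPM in D2 Control replicate 3, 247 CPM in D2 Control replicate 5 and 414 CPM in D2 Resilient replicate 5, the last within the D1 range. Its Drd2 was 205 CPM, between the classes, so its label is only partly borne out and it is called the library labelled D2 Resilient replicate 5. Where leaving out a library named here moved a result by much, the value without it stands beside it. Opalin, Gjb1 and Ugt8a had 0 counts in D2 Susceptible replicate 1, and Sox10 had 0 in D2 Susceptible replicate 2. The level of 3 reads was 0.0644 and 0.0543 CPM in these 2 libraries. In the other 4 of the group, Opalin read 3.82 to 8.89 CPM, Gjb1 0.904 to 1.74, Ugt8a 3.21 to 4.98 and Sox10 3.82 to 6.785 CPM. The 2 libraries had 48699934 and 55747736 reads assigned to genes, within the range of the rest. Why these counts were 0 was not tested.

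**Figure D1:**
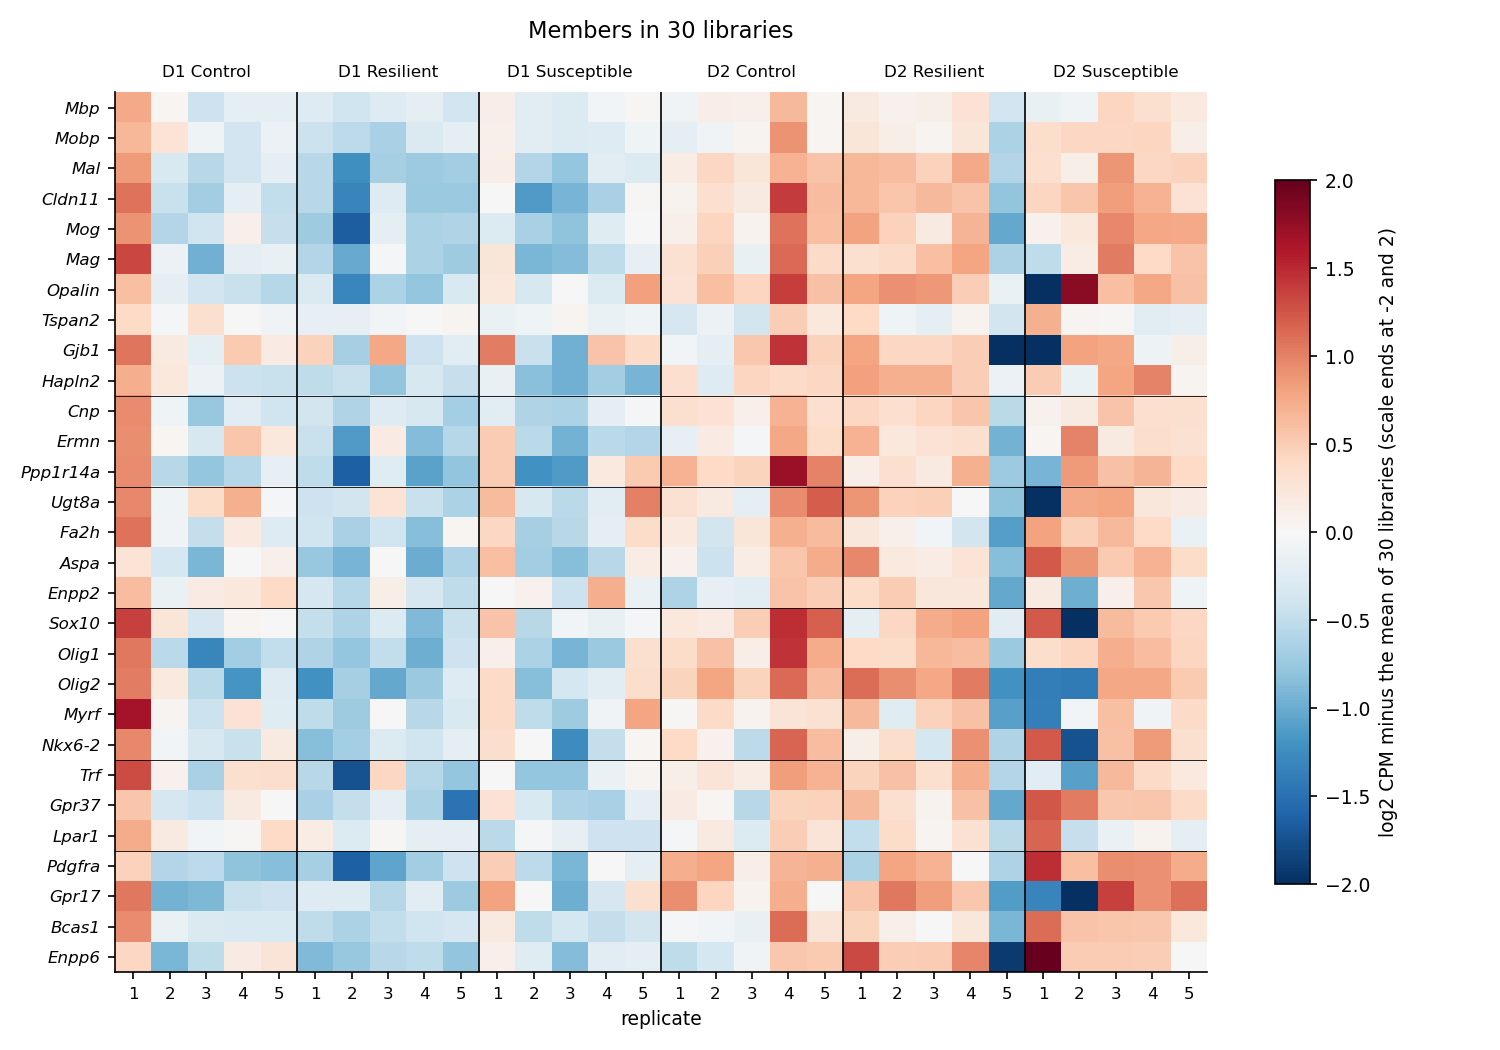
Each row is a member and each column a library (replicates 1 to 5 in each group). Colour gives log2 CPM minus that gene's mean over 30 libraries, and horizontal lines separate the 6 role groups. D1 Control replicate 1 is red in all 29 rows, the library labelled D2 Resilient replicate 5 is blue in nearly all, and D2 Susceptible replicates 1 and 2 hold the 4 values at 0 counts.

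Levels between genes were compared as CPM (reads scaled to library size after TMM) per kilobase of merged exon. Mbp, which encodes the protein that compacts the cytoplasmic faces of myelin, was the highest member at 22.1 CPM per kb, followed by Cnp at 15.1, Cldn11 at 12.8, Mobp at 10.3 and Mal at 9.23. The lowest were Aspa at 0.395, Pdgfra at 0.384 and Enpp6 at 0.317 CPM per kb. The median member stood at 1.76 CPM per kb, against 2.16 for all genes tested and 155 for 12 neuronal genes. By role, the median was 5.60 for proteins of myelin and its membranes, 2.35 for proteins of the process and cytoskeleton, 1.17 for enzymes of lipids and metabolites, 1.14 for transcription factors, 1.86 for transport proteins and receptors, and 0.434 CPM per kb for genes of precursors and committed cells.

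Members were compared first between the classes. Averaged over the 3 conditions, 18 of 29 members were lower in D1 than in D2 libraries and none was higher (edgeR's quasi-likelihood test, Benjamini-Hochberg adjusted p under 0.05 over 19368 genes). Among all genes tested, 15.5% were lower and 13.8% higher by the same rule. All 29 log2 differences (D1 minus D2) were below 0, with a median of -0.59, where 49.4% of all genes were below 0 and their median was 0.00. Summed over the 29 members, D1 libraries read 342 to 934 CPM (median 436) and D2 libraries 353 to 909 CPM (median 613). D1 Control replicate 1 set the top of the D1 range, and the library labelled D2 Resilient replicate 5 and D2 Control replicate 4 set the ends of the D2 range. For every member the D1 and D2 libraries overlapped, where 0.666% of genes had all D1 below all D2 libraries. Without D1 Control replicate 1, 21 members were lower and the median was -0.71. Without the 3 D2 libraries that carried more Drd1, 19 were lower and the median was -0.67.

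**Figure D2:**
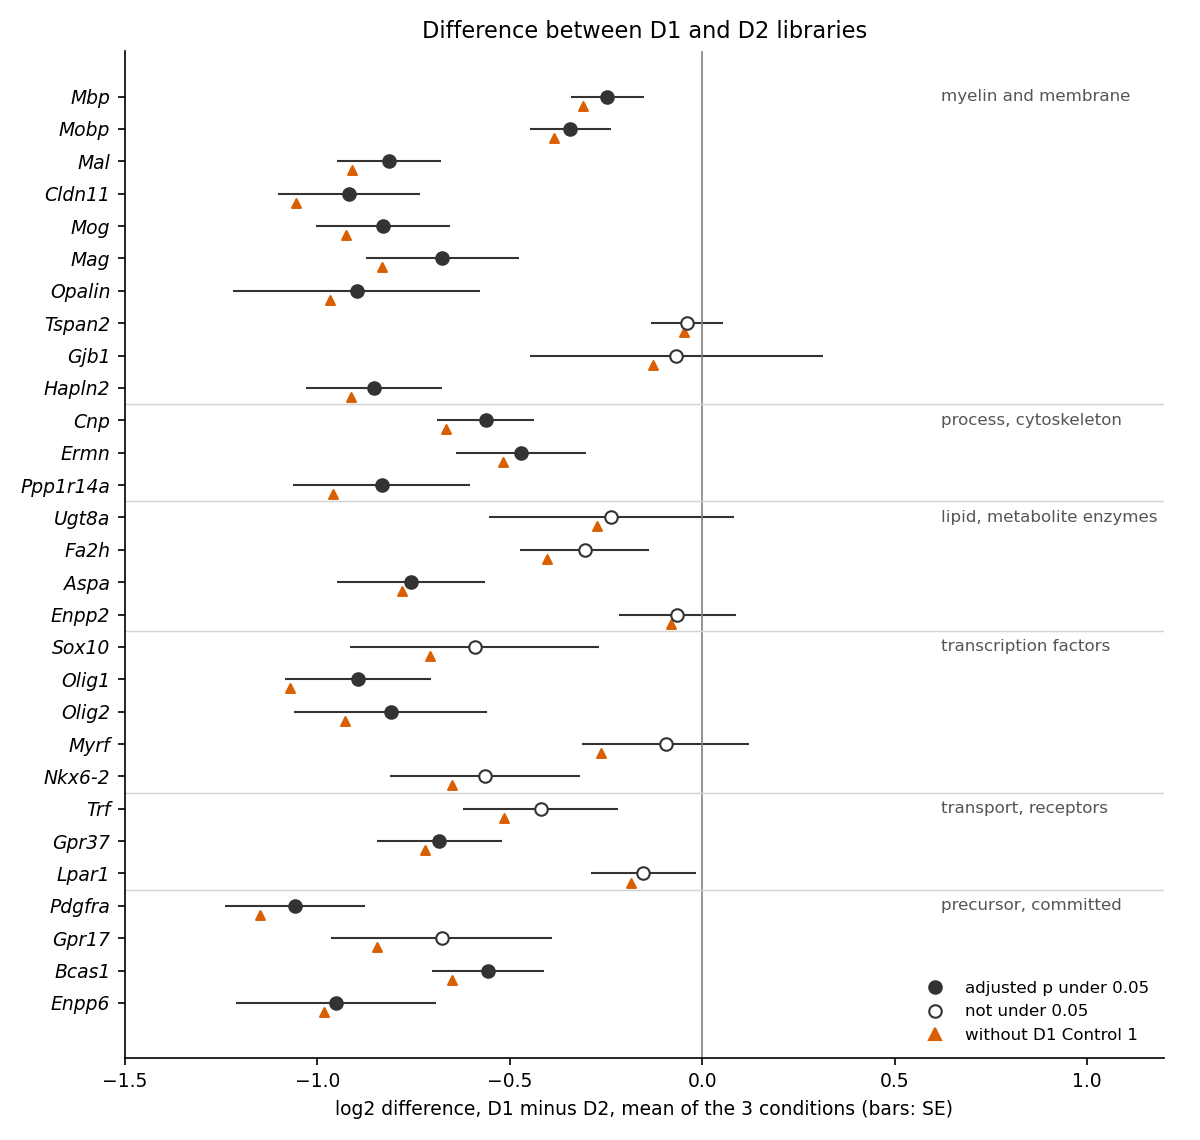
Points give the log2 difference, D1 minus D2, as the mean of the 3 conditions, with bars of 1 SE, for the 29 members by role. Filled points passed the test, open points did not, and triangles give the value without D1 Control replicate 1. All 29 points lie left of 0, from -0.04 for Tspan2 to -1.06 for Pdgfra.

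Of the 10 proteins of myelin and its membranes, 8 were lower in D1. Mal (ENSMUSG00000027375, chromosome 2, 127633226 to 127656695, minus strand), a membrane proteolipid of myelin, had the smallest adjusted p. In D1, Mal read 43, 19.2, 16.2, 18.2 and 20.8 CPM in Control, 16.2, 10.2, 14.9, 14.4 and 14.6 CPM in Resilient and 26, 15.8, 13.9, 20.3 and 19.8 CPM in Susceptible. The D2 libraries read 26.2, 31.7, 28, 38.4 and 35.3 CPM in Control, 37.6, 36.3, 32.5, 40.4 and 15.9 CPM in Resilient and 29.9, 25.9, 43.9, 31.5 and 32.6 CPM in Susceptible. The highest of the 15 D1 values was D1 Control replicate 1 and the lowest of the D2 values was the library labelled D2 Resilient replicate 5. Apart from that pair, each D2 value was at or above 25.9 CPM and no D1 value passed 26.0 CPM. Mal averaged 18.9 ± 7.64 CPM in D1 against 32.4 ± 6.88 CPM in D2 (SD, n = 15 each), a log2 difference of -0.81 with an SE of 0.135 (adjusted p = 2.44e-05).

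Cldn11 (ENSMUSG00000037625, chromosome 3, 31149920 to 31164324, plus strand) encodes claudin 11, which forms the tight junctions between myelin layers. The D1 libraries gave 45.3, 15.6, 13.2, 18.7 and 15.1 CPM in Control, 14.6, 8.59, 17.8, 12.8 and 12.7 CPM in Resilient and 21.3, 9.78, 11.2, 13.7 and 21.6 CPM in Susceptible. For D2 the values were 22.6, 27.1, 24.2, 56.6 and 32.8 CPM in Control, 33.7, 31.4, 33.5, 31.6 and 12.3 CPM in Resilient and 29, 31.6, 38.4, 34.8 and 26.2 CPM in Susceptible. It averaged 16.8 ± 8.75 CPM in D1 against 31.1 ± 9.45 CPM in D2 (SD, n = 15 each), a log2 difference of -0.92 with an SE of 0.185 (adjusted p = 0.000373). The libraries farthest from the rest of their groups were D1 Control replicate 1, D2 Control replicate 4 and the library labelled D2 Resilient replicate 5.

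Mog (ENSMUSG00000076439, chromosome 17, 37010743 to 37023398, minus strand) encodes a glycoprotein on the outer face of the sheath. D1 samples read 12.6, 4.50, 5.11, 7.22 and 4.90 CPM in Control, 4.11, 2.13, 5.91, 4.35 and 4.41 CPM in Resilient and 5.58, 4.29, 3.85, 5.69 and 6.82 CPM in Susceptible. D2 samples gave 7.21, 9.10, 7.11, 14.4 and 10.3 CPM in Control, 11.9, 9.26, 7.63, 10.8 and 3.32 CPM in Resilient and 7.19, 7.82, 13.2, 11.6 and 11.4 CPM in Susceptible. It averaged 5.43 ± 2.35 CPM in D1 against 9.48 ± 2.85 CPM in D2 (SD, n = 15 each), a log2 difference of -0.83 with an SE of 0.175 (adjusted p = 0.000507). Hapln2 (ENSMUSG00000004894, chromosome 3, 88021750 to 88027583, minus strand), a link protein of the matrix at nodes of Ranvier, was read at low counts of 13 to 193 per library. In D1 libraries, Hapln2 read 2.44, 1.70, 1.34, 1.07 and 1.07 CPM in Control, 1.01, 1.06, 0.827, 1.16 and 1.05 CPM in Resilient and 1.32, 0.798, 0.734, 0.887 and 0.752 CPM in Susceptible. In D2 libraries it read 1.85, 1.21, 1.98, 1.92 and 1.95 CPM in Control, 2.61, 2.41, 2.43, 2.07 and 1.35 CPM in Resilient and 2.08, 1.32, 2.56, 2.96 and 1.51 CPM in Susceptible. All 5 Resilient and all 5 Susceptible libraries of D1 lay below those of D2, and the Control libraries overlapped. Its log2 difference over the conditions was -0.85 (SE 0.177), with an adjusted p of 0.00041.

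Mbp (ENSMUSG00000041607, chromosome 18, 82475146 to 82585637, plus strand) differed least among the myelin proteins that passed. In D1, Mbp read 309.9, 188, 137, 161 and 159 CPM in Control, 154, 138, 152, 159.7 and 141 CPM in Resilient and 199.98, 159, 151, 177 and 185 CPM in Susceptible. The D2 libraries read 173, 201, 196, 286 and 188 CPM in Control, 208, 195, 198, 223 and 140.2 CPM in Resilient and 164, 175, 248, 229.6 and 209.8 CPM in Susceptible. It averaged 171 ± 42.5 CPM in D1 against 202 ± 35.4 CPM in D2 (SD, n = 15 each), a log2 difference of -0.25 with an SE of 0.095 (adjusted p = 0.04996). That p lay just under the threshold, and Mbp passed in 4 of the 30 fits that each left out 1 library. Rpl21-ps8, a pseudogene on the other strand, overlaps the gene. The log2 difference was -0.34 (SE 0.106) for Mobp, a small basic protein of compact myelin, -0.68 (SE 0.199) for Mag, the adhesion protein facing the axon, and -0.90 (SE 0.321) for Opalin, a glycoprotein of the paranodal loops. Opalin passed in 16 of the 30 fits. Tspan2, a tetraspanin, was at -0.04 (SE 0.094) with ranges of 25.6 to 38 CPM (median 27.8) in D1 and 22.3 to 47.1 CPM (median 27.1) in D2. Gjb1, the connexin 32 gene, was at -0.07 (SE 0.381). Neither passed, and both changed sign when single libraries were left out.

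**Figure D3:**
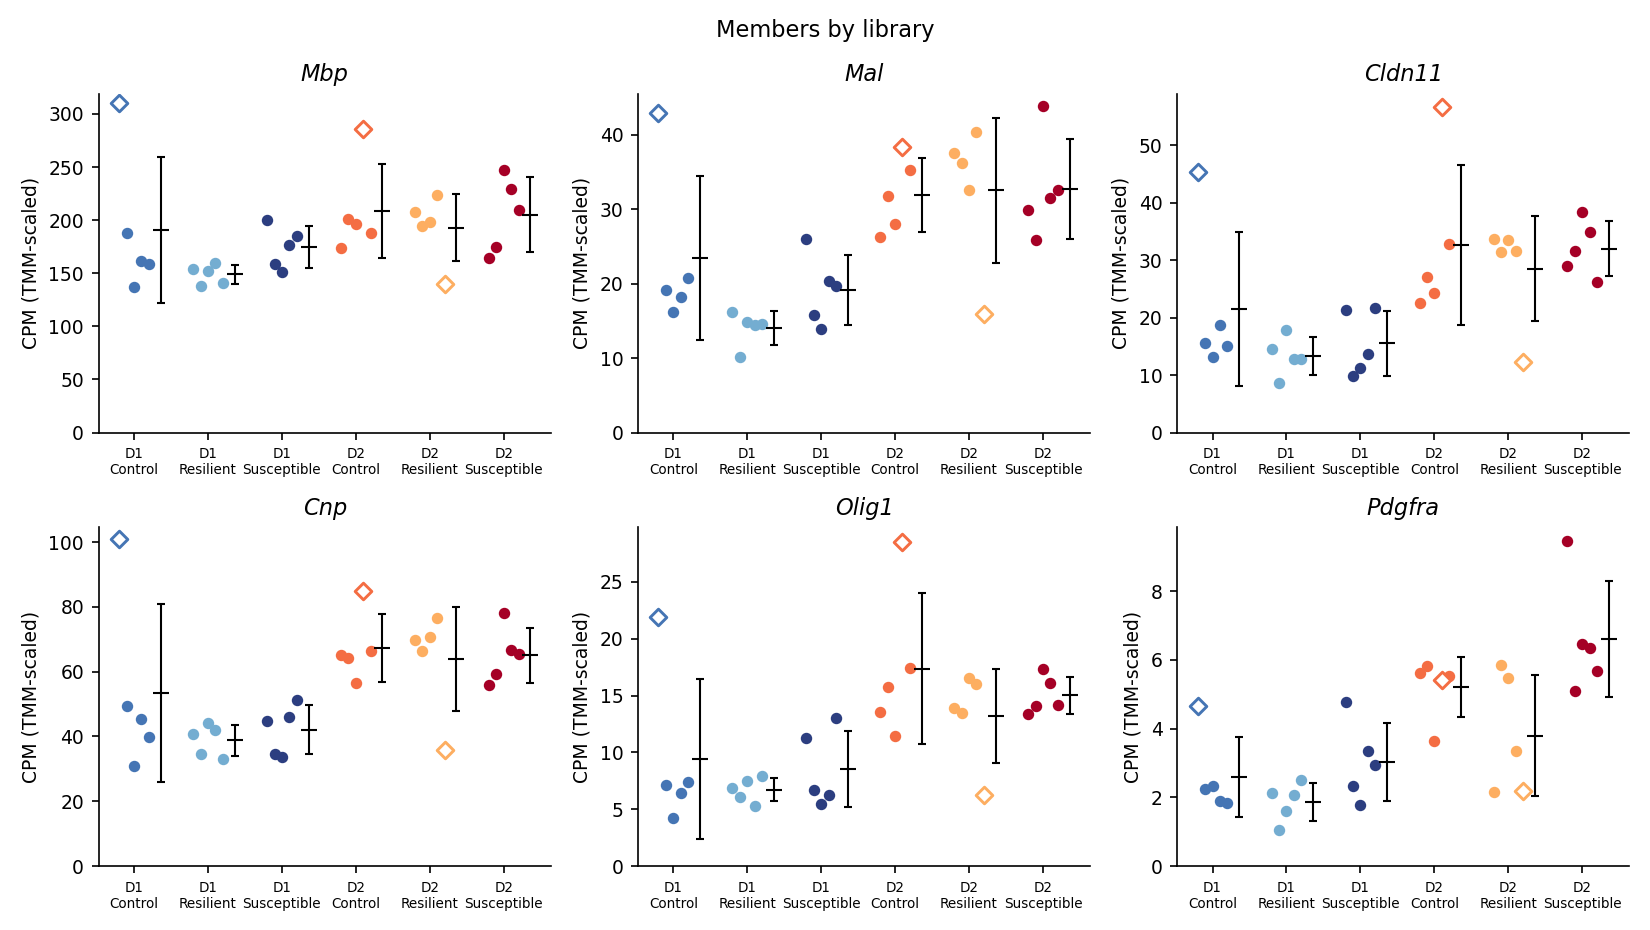
CPM on TMM-scaled library sizes for 6 members, with 1 point per library in 6 groups of 5, and the mean with SD as a bar at the right of each group. Open diamonds are D1 Control replicate 1, D2 Control replicate 4 and the library labelled D2 Resilient replicate 5. For Mal the D2 points lie between 15.9 and 43.9 CPM and 14 of the 15 D1 points lie at or below 26.0.

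All 3 genes of the process and cytoskeleton were lower in D1. Cnp (ENSMUSG00000006782, chromosome 11, 100574904 to 100591729, plus strand) encodes the phosphodiesterase that keeps cytoplasmic channels of myelin open. The D1 libraries gave 101, 49.3, 30.9, 45.4 and 39.9 CPM in Control, 40.6, 34.6, 44, 42.1 and 32.9 CPM in Resilient and 44.8, 34.6, 33.7, 46.1 and 51.3 CPM in Susceptible. For D2 the values were 65.3, 64.2, 56.4, 84.8 and 66.3 CPM in Control, 69.8, 66.5, 70.7, 76.7 and 36 CPM in Resilient and 56, 59.3, 78.1, 66.6 and 65.3 CPM in Susceptible. It averaged 44.7 ± 16.7 CPM in D1 against 65.4 ± 11.3 CPM in D2 (SD, n = 15 each), a log2 difference of -0.56 with an SE of 0.126 (adjusted p = 0.00102). Dnajc7 overlaps Cnp on the other strand over 8912 bases and had up to 28537 counts per library, and the strand setting of the counting is not given in the sources used here, so the level of Cnp is uncertain. Ppp1r14a, an inhibitor of myosin phosphatase, ranged over 0.87 to 5.40 CPM (median 1.89) in D1 and 1.44 to 9.32 CPM (median 3.78) in D2, and differed by -0.83 (SE 0.230) on the log2 scale. Ermn, the gene of the cytoskeletal protein ermin, was at -0.47 (SE 0.169) and passed in 12 of the 30 fits that left out a library.

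Of the 4 enzymes of lipids and metabolites, 1 was lower in D1. Aspa, which splits N-acetylaspartate and so frees acetate, ranged over 1.05 to 3.25 CPM (median 1.44) in D1 and 1.17 to 5.07 CPM (median 2.76) in D2. Its log2 difference was -0.76 (SE 0.193) with an adjusted p of 0.00334. Enpp2 (ENSMUSG00000022425, chromosome 15, 54838901 to 54952892, minus strand) encodes autotaxin, which makes lysophosphatidic acid, and was the highest of the group per kb. D1 samples read 26.5, 15.8, 19.5, 20.1 and 22.9 CPM in Control, 13.8, 11.7, 18.7, 13.7 and 12.2 CPM in Resilient and 17.2, 18.5, 12.8, 28.8 and 15.9 CPM in Susceptible. D2 samples gave 11.3, 15.5, 14.8, 25.8 and 24.5 CPM in Control, 22.4, 24.7, 20.3, 20.4 and 8.50 CPM in Resilient and 19.6, 8.77, 18.6, 25.3 and 16.3 CPM in Susceptible. The groups overlapped throughout, and the log2 difference of -0.06 (SE 0.153) did not pass (adjusted p = 0.8). Ugt8a, the galactosyltransferase that makes galactocerebroside, was at -0.24 (SE 0.318), and Fa2h, which hydroxylates the fatty acids of myelin lipids, was at -0.30 (SE 0.168). Neither passed.

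Of the 5 transcription factors, Olig1 and Olig2, the paralogous factors that specify the lineage, were lower in D1. In D1 libraries, Olig1 read 21.9, 7.17, 4.20, 6.47 and 7.40 CPM in Control, 6.90, 6.11, 7.44, 5.28 and 7.89 CPM in Resilient and 11.3, 6.72, 5.46, 6.23 and 13 CPM in Susceptible. In D2 libraries it read 13.6, 15.7, 11.4, 28.5 and 17.5 CPM in Control, 13.9, 13.5, 16.5, 16 and 6.21 CPM in Resilient and 13.4, 14.1, 17.4, 16.1 and 14.1 CPM in Susceptible. Olig1 (ENSMUSG00000046160, chromosome 16, 91269772 to 91271933, plus strand) averaged 8.23 ± 4.38 CPM in D1 against 15.2 ± 4.62 CPM in D2 (SD, n = 15 each), a log2 difference of -0.89 with an SE of 0.189 (adjusted p = 0.000567). Olig2 ranged over 1.05 to 5.05 CPM (median 1.93) in D1 and 0.906 to 5.50 CPM (median 4.26) in D2, and its log2 difference was -0.81 (SE 0.251). Sox10, which acts through the whole lineage, was at -0.59 (SE 0.323), and Nkx6-2, a homeobox factor of maturing cells, was at -0.56 (SE 0.248). Myrf, the factor that starts myelin gene expression, was at -0.10 (SE 0.217). These 3 did not pass with all libraries. Over the 30 fits that each left out 1 library, Sox10 passed in 1, Nkx6-2 in 2 and Myrf in 0. The edgeR adjusted p of Sox10, which had 0 counts in D2 Susceptible replicate 2, ran from 0.00463 to 0.292 over these fits. Myrf read 10.2, 3.29, 2.34, 3.90 and 2.67 CPM in D1 Control, so that 1 library was at more than 2 times any other D1 Control value, and its log2 difference without that library was -0.26. Inpp5a overlaps Nkx6-2 on the other strand.

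Of the 3 genes for transport and receptors, Gpr37, a receptor that restrains differentiation, was lower in D1. In D1, Gpr37 read 6.97, 3.76, 3.52, 5.39 and 4.76 CPM in Control, 3.00, 3.40, 4.20, 3.05 and 1.68 CPM in Resilient and 5.78, 3.84, 3.08, 3.03 and 4.16 CPM in Susceptible. The D2 libraries read 5.33, 4.87, 3.22, 6.49 and 6.55 CPM in Control, 7.49, 5.91, 4.99, 7.18 and 2.31 CPM in Resilient and 11.3, 9.80, 6.88, 6.97 and 6.21 CPM in Susceptible. Gpr37 (ENSMUSG00000039904, chromosome 6, 25665878 to 25690729, minus strand) averaged 3.98 ± 1.32 CPM in D1 against 6.37 ± 2.24 CPM in D2 (SD, n = 15 each), a log2 difference of -0.68 with an SE of 0.162 (adjusted p = 0.00165). Trf (ENSMUSG00000032554, chromosome 9, 103204001 to 103230444, minus strand) encodes transferrin, the iron carrier that oligodendrocytes make. The D1 libraries gave 53.5, 22.9, 13.8, 27 and 27.6 CPM in Control, 14.7, 6.42, 28.8, 14.6 and 12.6 CPM in Resilient and 21.8, 12.7, 12.7, 19.7 and 22.4 CPM in Susceptible. For D2 the values were 23.5, 25.8, 23.9, 38.6 and 35.1 CPM in Control, 29.5, 32.4, 27, 36 and 14.3 CPM in Resilient and 18.6, 10.2, 34, 28.4 and 24.7 CPM in Susceptible. D1 Control replicate 1 was the highest of all 30 libraries, D1 Resilient replicate 2 the lowest, and the log2 difference of -0.42 (SE 0.201) did not pass (adjusted p = 0.12). Trf passed in 2 of the 30 fits that each left out 1 library. Lpar1, a receptor for lysophosphatidic acid, was at -0.15 (SE 0.136) and did not pass.

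Of the 4 genes of precursors and committed cells, 3 were lower in D1. Pdgfra (ENSMUSG00000029231, chromosome 5, 75152292 to 75198215, plus strand), the growth factor receptor of precursors, differed most among the 29. D1 samples read 4.66, 2.23, 2.32, 1.90 and 1.84 CPM in Control, 2.12, 1.06, 1.59, 2.07 and 2.51 CPM in Resilient and 4.77, 2.32, 1.77, 3.36 and 2.93 CPM in Susceptible. D2 samples gave 5.61, 5.83, 3.65, 5.41 and 5.53 CPM in Control, 2.16, 5.85, 5.47, 3.34 and 2.17 CPM in Resilient and 9.45, 5.11, 6.46, 6.34 and 5.68 CPM in Susceptible. It averaged 2.50 ± 1.05 CPM in D1 against 5.20 ± 1.82 CPM in D2 (SD, n = 15 each), a log2 difference of -1.06 with an SE of 0.182 (adjusted p = 3.54e-05). Fibroblasts of the vessel wall also express Pdgfra, so its value does not belong to precursors alone. Bcas1 (ENSMUSG00000013523, chromosome 2, 170346991 to 170427845, minus strand) marks cells that begin to myelinate. In D1 libraries, Bcas1 read 27.2, 13, 11.6, 11.4 and 11.4 CPM in Control, 9.93, 9.17, 10.0, 10.7 and 11.2 CPM in Resilient and 16.1, 9.95, 11.1, 10.2 and 10.9 CPM in Susceptible. In D2 libraries it read 13.8, 13.6, 12.8, 30.8 and 17 CPM in Control, 19.2, 15.2, 14, 16.6 and 7.48 CPM in Resilient and 30.7, 21.2, 20.9, 20.6 and 16.3 CPM in Susceptible. It averaged 12.3 ± 4.45 CPM in D1 against 18 ± 6.29 CPM in D2 (SD, n = 15 each), a log2 difference of -0.56 with an SE of 0.145 (adjusted p = 0.00417). Enpp6, a choline phosphodiesterase of newly formed oligodendrocytes, was at -0.95 (SE 0.260), and 1 library, D2 Susceptible replicate 1 at 9.68 CPM, was more than 2 times any other. Without it the difference was -0.69, which passed. Gpr17, the receptor of the committed stage, was at -0.68 (SE 0.287) and did not pass (adjusted p = 0.0745). It passed in 4 of the 30 fits that each left out 1 library. Lims2 overlaps Gpr17 on the other strand.

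Within single conditions, fewer members passed. In Control mice 1 of 29 was lower in D1, Pdgfra, at -1.004 (SE 0.313) with an adjusted p of 0.0408 by edgeR, where 4.8% of all genes tested were lower. The median member was at -0.24 and 24 of 29 were below 0 (50.3% of genes). Without D1 Control replicate 1, 6 members were lower and the median was -0.51, while without D2 Control replicate 4 none was and the median was -0.03. In Resilient mice 7 were lower, against a background of 3.9%. These were Mal at -1.21 (SE 0.235), Hapln2 at -1.09 (SE 0.306), Mog at -1.04 (SE 0.305), Cldn11 at -1.1 (SE 0.321), Olig2 at -1.49 (SE 0.441), Cnp at -0.72 (SE 0.218) and Pdgfra at -1.02 (SE 0.315). All 29 log2 differences were below 0 (median -0.86, 50.5% of genes below 0), and without the library labelled D2 Resilient replicate 5 the count was 11 and the median -1.02 (10 and -1.03 without D2 Control replicates 3 and 5 as well). Of the 7, only Mal passed in each of the 10 fits that left out a library of these groups.

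In Susceptible mice 11 were lower in D1, against a background of 13.4%. They were Hapln2 at -1.25 (SE 0.312), Gpr37 at -1.07 (SE 0.283), Pdgfra at -1.15 (SE 0.316), Bcas1 at -0.92 (SE 0.254), Mal at -0.79 (SE 0.234), Cldn11 at -1.06 (SE 0.323), Mog at -0.97 (SE 0.306), Enpp6 at -1.41 (SE 0.456), Aspa at -0.98 (SE 0.338), Cnp at -0.63 (SE 0.218) and Mobp at -0.49 (SE 0.184). The first 4 of these passed in each of the 10 fits that left out a library. Enpp6 was at -0.651 without D2 Susceptible replicate 1 and did not pass (edgeR adjusted p = 0.255). Without D2 Susceptible replicates 1 and 2, the libraries with few genes detected, 4 members passed and the median was -0.69, against -0.58 with them. Of the 29, 25 were below 0 (48.7% of genes). For 9 members all 5 D1 libraries lay below all 5 D2 libraries (Mobp, Cldn11, Mog, Hapln2, Cnp, Olig1, Gpr37, Pdgfra and Bcas1), as they did for 4.12% of all genes. In Resilient mice this held for 3 members, Opalin, Hapln2 and Sox10 (5.01% of all genes), and in Control mice for none (6.05%).

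Markers of other cell types differed between the classes in the same direction. Of 12 endothelial genes, 12 were lower in D1 (median log2 difference -3.19), and their summed level was 30.7 to 77.3 CPM in D1 and 115 to 427 CPM in D2. Of 12 genes of mural cells and fibroblasts, 11 were lower (median -2.70, 10.7 to 40.2 CPM against 98.4 to 278 CPM). Of 12 astrocyte genes, 10 were lower (median -1.34, 405 to 959 CPM against 460.4 to 944 CPM), and of 11 microglial genes tested, 6 were (median -0.70, 29.8 to 95.7 CPM against 33.2 to 89.3 CPM). No marker of these lists was at 0 counts in all libraries of a class. Trem2 was at 0 in some libraries of both classes, as were Acta2, Lum and Col3a1, and P2ry12, C1qc, Myh11 and Kcnj8 were at 0 in some libraries of 1 class. The part of these cell types in the difference of the members was not tested. By name, Sox9, an astrocyte factor, was at -1.92 and Gfap at -1.99, both further from 0 than any member.

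**Figure D4:**
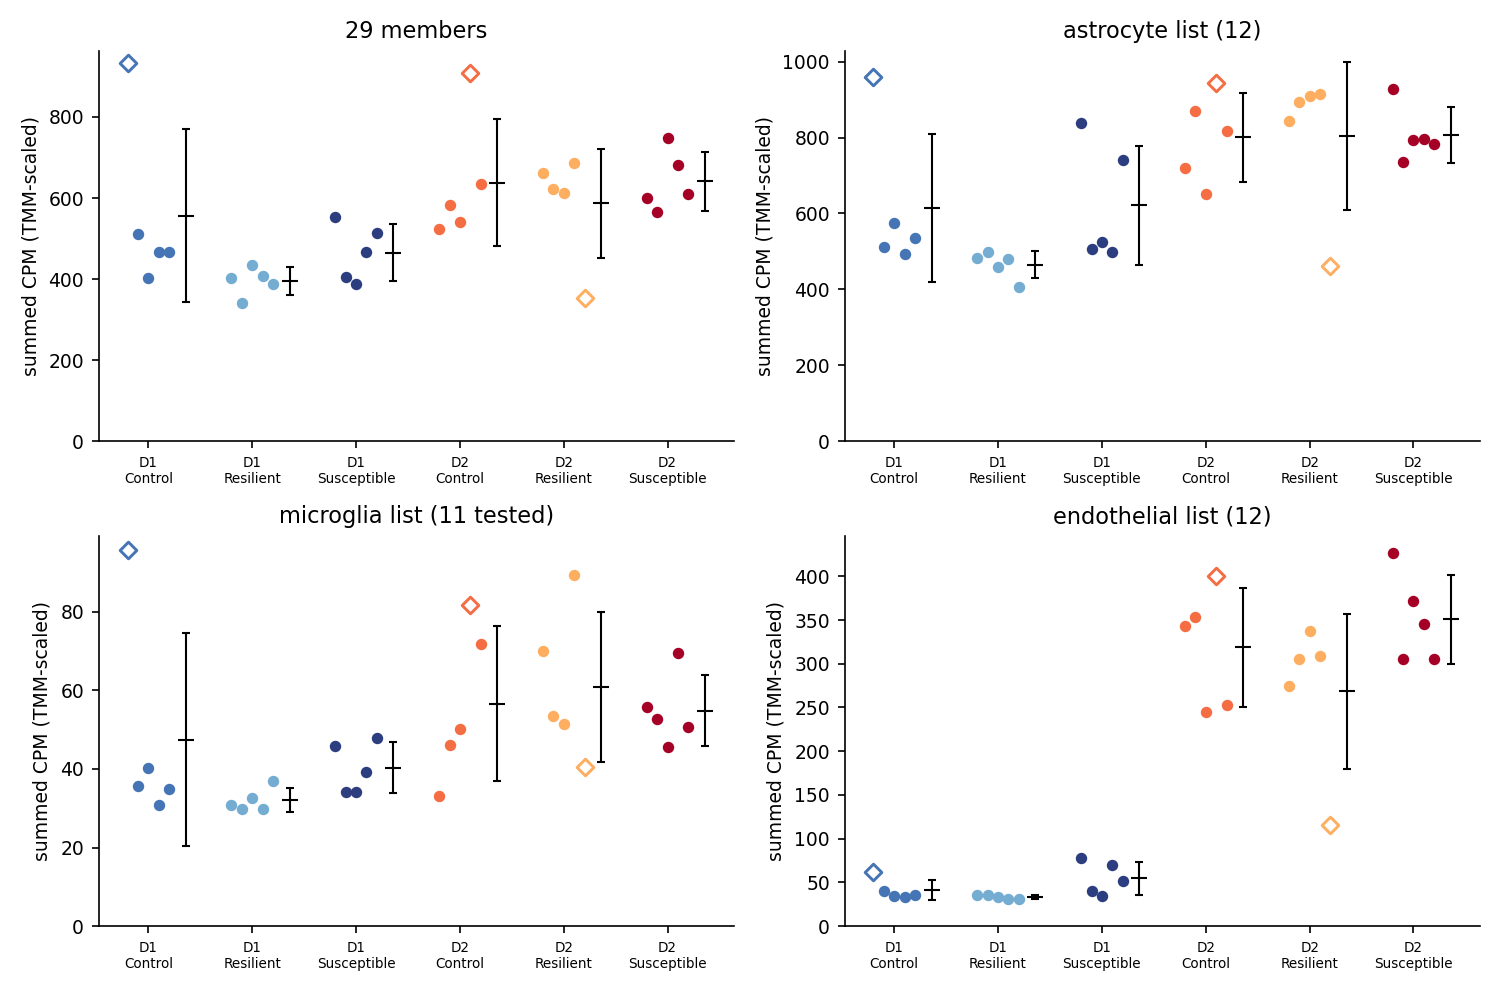
Summed CPM per library of the 29 members, 12 astrocyte, 11 microglial and 12 endothelial genes, with 1 point per library in 6 groups of 5 and the mean with SD at the right of each group. Open diamonds mark D1 Control replicate 1, D2 Control replicate 4 and the library labelled D2 Resilient replicate 5, which lie at an end of their group for the members. Endothelial sums are at or below 77.3 CPM in D1 and at or above 115 CPM in D2.

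Other genes of the lineage that passed were more often lower than higher in D1. Among all genes tested, 15.5% were lower and 13.8% higher by the same rule. Of 34 further genes of mature oligodendrocytes that were tested, 13 were lower and 4 higher in D1 (median -0.35). Apod, a lipid carrier, was at -1.21, Pllp, a myelin proteolipid, was at -1.27, and Cdk18, a kinase, was higher at 0.73. Of 16 further genes of precursors, 8 were lower and 2 higher (median -0.56). Cspg4, the NG2 proteoglycan that pericytes also carry, was at -2.24, Itpr2, a calcium channel of newly formed cells, was at -1.37, and Sox6 was higher at 1.16. Of 16 genes of cholesterol synthesis, the pathway that supplies the main lipid of myelin and runs in neurons too, 6 were higher and none lower (median 0.15), with Sqle at 0.29 and Hmgcs1 at 0.24.

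Stress was then compared within each class. No member passed the test in D1 Resilient against D1 Control, where 0 of 19368 genes did (0.0%). DESeq2 called no member either, and voom with quality weights called 1, Ermn. Both called none in the other stress comparisons and the interactions. At an unadjusted p under 0.05, 14 members were lower and none higher, where 1.51% of genes were lower. All 29 log2 differences were below 0, as were 52.3% of all genes, and their median was -0.63. The 14 were Mbp, Mobp, Mal, Cldn11, Mog, Mag, Cnp, Ermn, Fa2h, Enpp2, Myrf, Trf, Gpr37 and Bcas1. Mal was at -0.74 (SE 0.233), Trf at -0.91 (SE 0.350), Ermn at -0.85 (SE 0.293) and Mobp at -0.52 (SE 0.183). For Mal and Bcas1 all 5 Resilient libraries lay below all 5 Control libraries, as they did for 0.651% of genes. The margins were small. The highest Resilient and lowest Control values were 16.18 and 16.20 CPM for Mal, and 11.16 and 11.43 CPM for Bcas1.

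These values moved when D1 Control replicate 1 was left out. The median became -0.32, 27 of 29 were still below 0, and 1 member, Ermn, had an unadjusted p under 0.05. Mal was then at -0.40, Trf at -0.56, Ermn at -0.66, Mobp at -0.34 and Mbp at -0.11, against -0.36 with it. In the same library the summed level of astrocyte genes was 959 CPM, where the other 4 D1 Control libraries read 493 to 575 CPM. Its summed microglial level was 95.7 CPM against 30.8 to 40.3 CPM, and its endothelial level 61.5 CPM against 33.1 to 40.5 CPM. The neuronal level was 11477 CPM against 11908 to 12605 CPM, in a list that includes class markers. Penk read 1811 CPM there against 1125 to 1313 CPM, and Drd1 380 CPM against 476 to 569 CPM. The neuronal sum thus also follows class markers. For the members the sums were 934 CPM against 403 to 512 CPM. With that library included, all 12 astrocyte genes and all 11 microglial genes tested were also below 0 in D1 Resilient against D1 Control (medians -0.58 and -0.50). So were all 12 endothelial genes (median -0.395) and 10 of 12 genes of mural cells and fibroblasts (median -0.712). The part of the other cell types in the members' values was not tested.

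**Figure D5:**
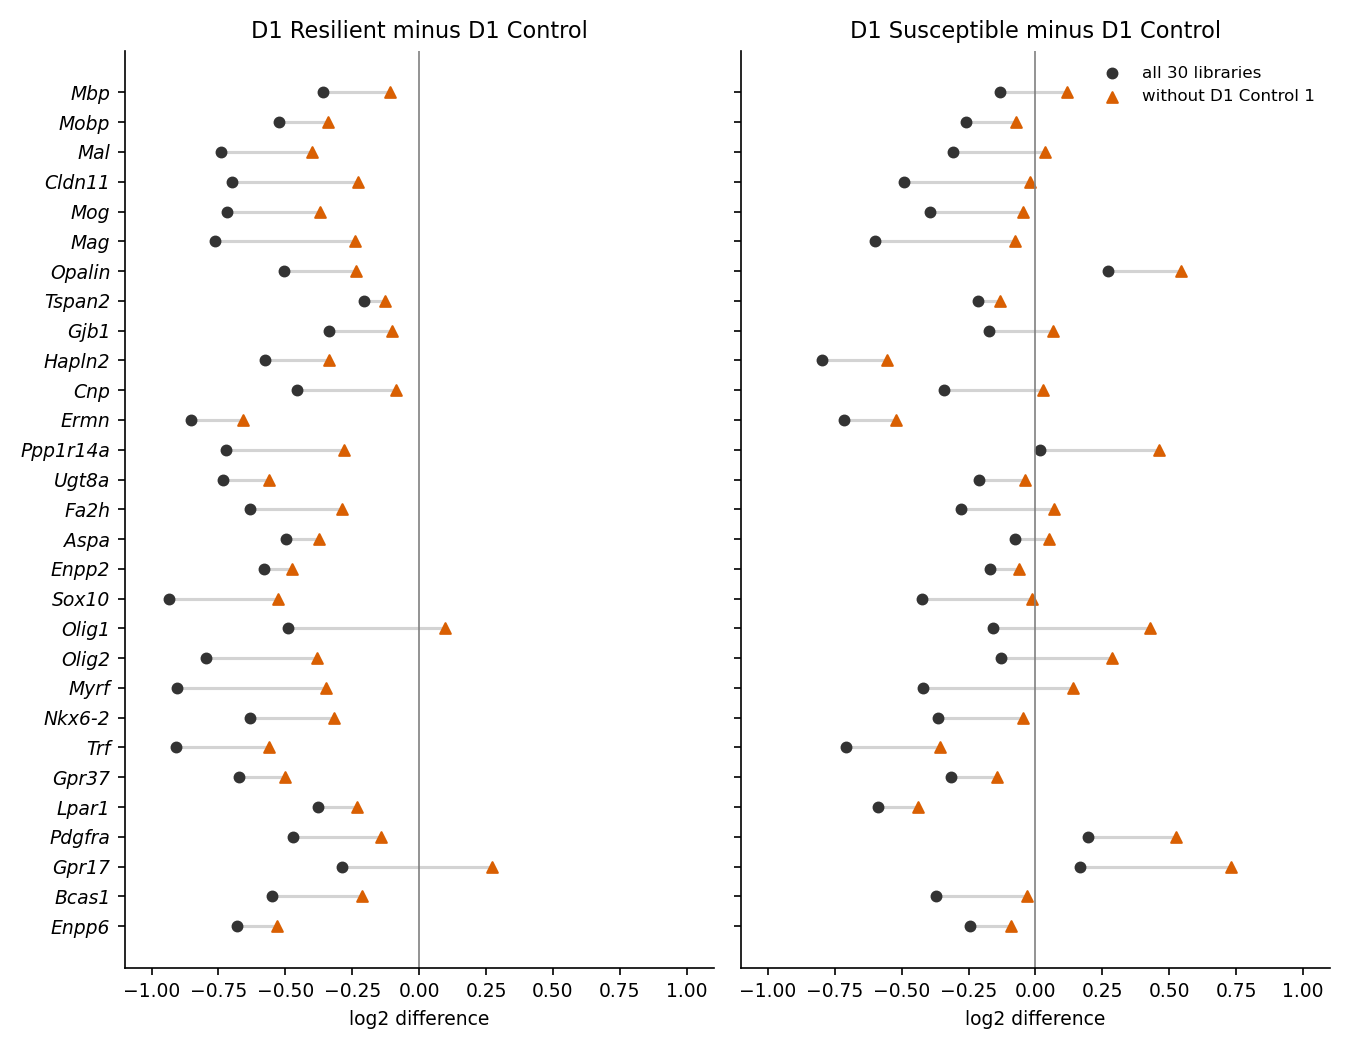
Log2 differences of the 29 members in D1 Resilient against D1 Control (left) and D1 Susceptible against D1 Control (right). Circles use all 30 libraries, triangles leave out D1 Control replicate 1, and a grey line joins the values of a gene. The medians move from -0.63 to -0.32 on the left and from -0.28 to -0.02 on the right.

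In D1 Susceptible against D1 Control no member passed, where 0.0% of genes did. At an unadjusted p under 0.05, 3 were lower, Hapln2 at -0.80 (SE 0.311), Ermn at -0.72 (SE 0.296) and Lpar1 at -0.59 (SE 0.238), where 0.991% of genes were lower. Without D1 Control replicate 1 they were at -0.556, -0.52 and -0.44, and no member had an unadjusted p under 0.05. The median of the 29 was -0.28 with 25 below 0 (52.3% of genes), and without D1 Control replicate 1 it was -0.02 with 16 below 0. In D1 Susceptible against D1 Resilient no member passed (0.0% of genes did), the median was 0.33 and 26 of 29 were above 0, with 3 below (51.4% of genes were below). That comparison does not use the Control libraries. Pdgfra, at 0.67 (SE 0.318), was the only member with an unadjusted p under 0.05, where 2.2% of genes were higher. Without D1 Susceptible replicate 1 the median was 0.20. Of the other lists, all 12 endothelial and all 12 astrocyte genes were above 0 in the same comparison, with medians of 0.74 and 0.49, and none passed. D1 Susceptible replicate 1 was the highest of its group in both sums. The summed levels, endothelial and then astrocyte, ran from 34.1 to 77.3 CPM and from 498 to 837 CPM in D1 Susceptible, and from 30.7 to 35.9 CPM and from 405 to 499 CPM in D1 Resilient. Their part in the members' values was not tested.

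With all libraries, the medians of the members were closer to 0 in D2 than in D1. Without D1 Control replicate 1 this did not hold for Susceptible against Control, where the D1 median was -0.02. The D2 medians were -0.12 in Resilient against Control, 0.04 in Susceptible against Control and 0.13 in Susceptible against Resilient. No member passed in any of these, where 0.0%, 0.00516% and 0.0516% of genes did. In the first comparison no member had an unadjusted p under 0.05, where 4.2% of genes did. In the second, Gpr37 was at 0.64 (SE 0.278) and Enpp6 at 1.03 (SE 0.446), where 8.68% of genes were higher. Without D2 Susceptible replicate 1, Enpp6 was at 0.295, and without D2 Susceptible replicates 1 and 2 Gpr37 was at 0.329 and Enpp6 at 0.249, with no unadjusted p under 0.05 for either gene. In the third, Pdgfra was at 0.80 (SE 0.310), Fa2h at 0.65 (SE 0.291) and Bcas1 at 0.59 (SE 0.251), where 10.8% were higher. Without D2 Susceptible replicates 1 and 2 these were 0.693, 0.508 and 0.404, and Pdgfra alone of them kept an unadjusted p under 0.05. The medians of these last comparisons, against Control and against Resilient, were then 0.11 and 0.14. Each median changed sign when a single library was left out. The first became 0.04 without either D2 Control replicate 4 or the library labelled D2 Resilient replicate 5. The second was -0.08 when D2 Susceptible replicate 3 was omitted and 0.16 when D2 Control replicate 4 was, and the third became -0.01 without the library labelled D2 Resilient replicate 5. In that Resilient library the summed members read 353 CPM, where the other 4 read 613 to 688 CPM. Its astrocyte sum was 460.4 CPM against 844 to 915 CPM, and its endothelial sum was 115 CPM against 274 to 338 CPM. The neuronal sum was 15328 CPM against 18729 to 21725 CPM. That neuronal list includes Penk, which read 4038 CPM in this library and 7888 to 10665 CPM in the other 4, so the sum also follows a class marker. The part of these cell types in the members' values was not tested.

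Whether the stress differences themselves differed between the classes was tested by the interaction. No member passed in any of the 3 tests, and 0 of 19368 genes did (0.0% in each). The median D1 minus D2 change was -0.45 for Resilient against Control, -0.34 for Susceptible against Control and 0.09 for Susceptible against Resilient. Without D1 Control replicate 1 the first pair became -0.11 and 0.00. At an unadjusted p under 0.05 there was Mal in the first test, at -0.77 (SE 0.327), and Hapln2, Ermn and Gpr37 in the second, where 1.84% and 4.79% of genes were lower. Without D1 Control replicate 1, Mal was at -0.425 and had no unadjusted p under 0.05. In the second test Hapln2 was at -1.02 (SE 0.432), and at -0.779 without D1 Control replicate 1. In the third test none had, where 12.4% of genes did. The smallest adjusted p among the members was 0.929, 0.637 and 0.414 in the 3 tests by edgeR.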

How the data were processed

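Ribosome-associated RNA of nucleus accumbens was measured in 30 libraries, 5 in each of 6 groups taken from the labels. Each library's deposited file lists raw counts per gene, made by the authors with HISAT2 and HTSeq on mm10 (GRCm38), per the submitters' processing notes. Their versions, strand setting and annotation release are not given. Counts on lines that name no gene (10.1 to 53.3% of a library's counts, the most in D1 Susceptible replicate 1) were left out of library sizes and tests.

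Counts were fitted in R 4.3.3 with edgeR 4.0.16 (quasi-likelihood test, TMM scaling, robust dispersion) in 1 model of 6 groups, after a filter by expression (minimum count 10, total 15) that kept 19368 of 55335 genes. The model was also run on simulated counts, drawn independently for each library with some genes changed in D1 Control. That simulation held no library that stood apart, so it cannot show how such libraries affect the results. There were 13 comparisons, with p-values adjusted by Benjamini-Hochberg across the 19368 genes and 0.05 as threshold. A log2 difference is the fitted one, and CPM uses TMM-scaled library sizes. Exon lengths and coordinates came from GENCODE M21 (GRCm38), and figures were drawn with matplotlib 3.10.9. The members and lists were chosen with earlier results of these data known, so counts within them are descriptions.

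Values in every library are given for members with the smallest adjusted p (up to 3 a comparison and direction) and for the highest member per kb of each role. Of other lists, up to 3 genes with the smallest unadjusted p are named. Alternatives were DESeq2 1.42.0, its size factors in edgeR, voom with quality weights (limma 3.58.1), no filter, only the groups compared, a replicate block, leaving out each library, and sets of libraries, 3 of which were chosen after seeing the data. Each library pools 4 mice, and p-values measure the spread between these pools. Replicate numbers did not pair libraries.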

Additional observations from a re-analysis of the deposited data

Results flagged for a closer look

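In each group of 5 libraries, the highest or lowest library was set against its neighbours by Dixon's criterion on log2 CPM, separately for each member. Of 174 pairs of member and group, 30 had a library far from the other 4, and chance alone flags about 1 group in 20.

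D1 Control replicate 1, the highest of its group for all 29 members, was flagged by this criterion for 5. These 5 were of different stages, from the precursor receptor to compact myelin. Pdgfra read 4.66 CPM, Gpr17 4.49 CPM, Bcas1 27.2 CPM, Mal 43 CPM and Cldn11 45.3 CPM there. The library labelled D2 Resilient replicate 5 was the lowest of its group for 28 members, and the criterion flagged 10 of them. Among genes of myelin and its channels, Mobp read 43.9 CPM, Mal 15.9 CPM, Cldn11 12.3 CPM, Cnp 36 CPM and Gjb1 0.0603 CPM, the last from 3 reads. Enpp2 read 8.50 CPM, Olig1 6.21 CPM, Olig2 1.05 CPM, Gpr17 0.965 CPM and Enpp6 0.422 CPM in the same library.

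D2 Susceptible replicate 1, a library with few genes detected, had Opalin, Gjb1 and Ugt8a at 0.0 CPM, Ppp1r14a low at 1.44 CPM and Enpp6 high at 9.68 CPM. Sox10 was at 0.0 CPM in D2 Susceptible replicate 2, and Mobp was low in D2 Susceptible replicate 5 at 74.2 CPM. In D2 Control, Mobp at 127 CPM and Opalin at 6.69 CPM were high in replicate 4, Hapln2 was low in replicate 2 at 1.21 CPM, and Pdgfra was low in replicate 3 at 3.65 CPM. In D1 Susceptible, Ermn at 8.42 CPM and Bcas1 at 16.1 CPM were high in replicate 1, and Tspan2 was high in replicate 3 at 30.1 CPM. Mal was low in D1 Resilient replicate 2, at 10.2 CPM.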

How the results depend on the processing

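Averaged over all conditions, 15 of the 18 members lower in D1 passed in each of the 30 fits that left out 1 library, and the count ran from 15 to 21. It was 18 with DESeq2's size factors, 19 with DESeq2's Wald test, 24 with voom, 16 with no filter, 19 without D2 Susceptible replicates 1 and 2, and 21, 23 and 19 without the 3 sets of libraries chosen after seeing the data. A fit of only the groups compared gives no other value there, since it uses all 6. Within Control, where 1 member passed, the count was 9 with voom, 0 with no filter, and 5 and 13 without the first 2 of those sets (D1 Control replicate 1, D2 Control replicate 4 and the library labelled D2 Resilient replicate 5, and D1 Control replicate 1, D1 Susceptible replicate 1 and D2 Susceptible replicates 1 and 2). Leaving out single libraries gave 0 to 6, with 6 without D1 Control replicate 1 and 0 without any of D1 Control replicates 2 to 5 and D2 Control replicates 1, 2, 4 and 5. Within Resilient, where 7 passed, it was 21 with voom, 3 with no filter, 14 with only the groups compared, 15 without the first set, and 1 to 11 without single libraries, 11 being without the library labelled D2 Resilient replicate 5 and 1 to 4 without any other. Within Susceptible, where 11 passed, it was 18 with voom, 7 with only the groups compared, 4 without D2 Susceptible replicates 1 and 2, and 4 to 11 without single libraries, the lowest being 4 without D1 Susceptible replicate 3 and 6 without D1 Susceptible replicate 2. In the stress comparisons and interactions, the count stayed at 0 to 0 without single libraries, and 1 member, Ermn, passed with voom in D1 Resilient against D1 Control.

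Members near 0 changed sign between the classes. Tspan2 became 0.114 with voom, 0.061 without D2 Susceptible replicates 1 and 2, 0.022 without the second set, and ran from -0.048 (without D2 Control replicate 3) to 0.044 (without D2 Susceptible replicate 1) over single libraries, above 0 also without D2 Control replicate 4 and D2 Resilient replicate 1. Over single libraries, Gjb1 was lowest at -0.158 (D2 Susceptible replicate 1 left out) and highest at 0.067 (D2 Control replicate 4 left out), above 0 also without D1 Susceptible replicate 3 and D2 Susceptible replicates 2 and 3. Enpp2 ran from -0.119 (without D1 Susceptible replicate 4) to 0.008 (without D2 Susceptible replicate 4), above 0 also without D2 Control replicate 4. The cause was not tested.

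Same-numbered libraries of different groups did not deviate together: none of 75 pairs correlated above 0.1 (-0.17 to 0.08), and 2 of 30 libraries correlated best with their own number. With the replicate block the counts were 1 in Control, 6 in Resilient, 11 in Susceptible, 17 over all conditions and 0 in every stress comparison and interaction. The median gene moved by at most 0.05 (log2) in any comparison. The 0 counts of Opalin, Gjb1, Ugt8a and Sox10 fell in D2 Susceptible replicates 1 and 2. These libraries had few genes detected at 48699934 and 55747736 reads assigned to genes, and the cause was not tested.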
